A study of Mus musculus with 34 samples.

Results

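Genes that encode integrin alpha subunits were followed through every cell table of the series: *Itga1*, *Itga2*, *Itga2b*, *Itga4*, *Itga5*, *Itga6*, *Itga7*, *Itga8*, *Itga9* and *Itgav*, which are 10 of the 25772 genes with a transcript in a kept cell. The members were taken by name, not by their values. The series holds single-cell transcriptomes of mast cells (MCs) sorted from mouse ear skin as CD45+ Lin- YFP+ cells, and of CD45- GFP+ cells sorted from Myh11GFP/+ reporter mice (Myh11-GFP cells), in which GFP is driven by *Myh11* and the level of that gene is no finding. MCs came from 3 Tln1∆MC mice (Mcpt5-Cre+/- Tln1 fl/fl R26 LSL YFP) and 3 wild-type (WT) littermate controls (Mcpt5-Cre+/- Tln1+/+ R26 LSL YFP), all 7-week-old males. The labels give the strain as C57BL/6J, and the study's methods place the Mcpt5-Cre Tln1 fl/fl line and its crosses with the YFP reporter on albino C57BL/6J mice (Tyr c-2J/c-2J). Both genotypes therefore carried Cre under the promoter of *Mcpt5* (*Cma1*), a chymase gene of connective tissue MCs, and the YFP reporter, and differed in the floxed *Tln1* alleles. The number after the genotype in the labels was taken as the mouse. How many mice gave the 4 Myh11-GFP libraries is not given in the sources used here, and for their age the methods give only a range over all genotypes, which starts at 7 weeks. The study made 4 libraries from each plate of sorted cells, so these 4 may share a plate and a mouse. Values are given for each of them, but their spread may be technical and their agreement is not replication.

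Cells with over 1000 transcripts entered the comparison, namely 904 WT, 1573 Tln1∆MC and 330 Myh11-GFP cells. Outside genes named Gm plus a number, they held 699401 to 1147647 transcripts per WT mouse, 780209 to 5238325 per Tln1∆MC mouse and 221589 to 478713 per Myh11-GFP library. The third Tln1∆MC mouse had 10 libraries and every other mouse 4. Levels are given as transcripts per 10000 transcripts outside Gm genes, which took at most 58.0% of transcripts per mouse or library, summed over the cells of a mouse or library. Each transcript was counted once at its 3′ end, so levels of different genes can be set side by side without a correction for length. Intervals are exact 95% intervals and cover counting error only.

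MC markers fitted the labels, while the Myh11-GFP libraries held pericyte and fibroblast markers beside those of smooth muscle. The MC and smooth muscle lists include *Cma1* and *Myh11*, whose promoters drove the reporters used for sorting. The 9 MC markers summed to 633 to 866 per 10000 in the 6 mice and to 0.0551 to 0.265 in Myh11-GFP libraries. The 5 smooth muscle markers summed to 66.2 to 89.2 in Myh11-GFP libraries and to at most 0.154 in MCs, but 7 pericyte markers reached 131 to 140 and 6 fibroblast markers 142 to 340 in the same Myh11-GFP libraries. *Tln1*, the floxed gene, stood at 4.51, 5.92 and 6.71 per 10000 in WT mice and at 5.57, 4.33 and 3.63 in Tln1∆MC mice, with overlapping ranges. Transcripts are counted at the 3′ end, and whether the deleted part lies there is not given in the sources used here, so *Tln1* does not check the genotype. Fibroblast markers summed to 20.1 to 82.7 in WT MCs and to 0.976 to 10.5 in Tln1∆MC MCs, and their part in any difference between the genotypes was not tested beyond the values given beside it. A library of the second WT mouse stood apart with keratinocyte markers at 72.8 and macrophage markers at 88.7 per 10000, and a library of the third Tln1∆MC mouse with keratinocyte markers at 134, so results that rest on them are also given without both.

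Integrins are heterodimers of 1 alpha and 1 beta subunit that link matrix proteins or counter-receptors outside the cell to the actin cytoskeleton inside it. The alpha subunit largely sets the ligand: *Itga1* and *Itga2* encode the collagen receptor subunits, *Itga6* and *Itga7* laminin receptor subunits, *Itga5*, *Itga8*, *Itgav* and *Itga2b* subunits that read the RGD motif of fibronectin, vitronectin, nephronectin or fibrinogen, and *Itga4* and *Itga9* related subunits that bind VCAM-1, fibronectin, osteopontin or tenascin. Talin-1, the product of *Tln1*, binds the tail of the beta subunit and brings the heterodimer into its active state. MCs in skin lie within the collagenous dermis, often near vessels, whose walls hold the smooth muscle that expresses *Myh11*.

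The genes lie apart in the genome except for *Itga1* and *Itga2*, which are neighbours. In the GENCODE vM21 annotation of GRCm38, *Itga2* spans chromosome 13, 114833081 to 114932100, and *Itga1* spans chromosome 13, 114953096 to 115101964, both on the minus strand, 20996 bases apart. *Itga1* shares its strand and part of its span with *Pelo*, so its counts are uncertain to the extent that reads of *Pelo* (0.204 to 0.314 per 10000 in MCs, 0.716 to 1.01 in Myh11-GFP libraries) were assigned to it. *Itga8* spans 12106632 to 12301922 on the minus strand of chromosome 2. The 250 bases before the RefSeq transcript starts of these 3 genes are shown, because the data place neighbouring *Itga2* and *Itga1* in different cells and *Itga8* in the contractile part of the Myh11-GFP cells. They come from a RefSeq promoter table of GRCm38.p6 that matched 8 of the 10 genes, read 5′ to 3′ on the minus strand, at chr13:114932101-114932350, chr13:115101965-115102214 and chr2:12301945-12302194. Capitals mark E-box letters, CANNTG.
Itga2: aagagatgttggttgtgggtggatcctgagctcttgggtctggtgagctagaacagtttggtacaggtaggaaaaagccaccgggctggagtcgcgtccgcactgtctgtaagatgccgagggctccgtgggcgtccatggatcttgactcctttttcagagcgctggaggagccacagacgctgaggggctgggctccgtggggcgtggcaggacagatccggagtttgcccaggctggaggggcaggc
Itga1: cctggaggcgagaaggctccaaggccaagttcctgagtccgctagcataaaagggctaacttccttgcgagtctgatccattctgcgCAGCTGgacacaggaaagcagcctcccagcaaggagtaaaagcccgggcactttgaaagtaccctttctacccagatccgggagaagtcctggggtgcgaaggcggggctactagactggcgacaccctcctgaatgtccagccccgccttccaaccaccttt
Itga8: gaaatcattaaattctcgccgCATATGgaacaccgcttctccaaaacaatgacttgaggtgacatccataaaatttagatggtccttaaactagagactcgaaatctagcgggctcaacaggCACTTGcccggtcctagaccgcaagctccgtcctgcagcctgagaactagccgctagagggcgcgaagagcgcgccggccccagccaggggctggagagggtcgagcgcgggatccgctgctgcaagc
The *Itga2* window held no CANNTG, the *Itga1* window 1 at 163 bases before the start, and the *Itga8* window 2 at 229 and 128 bases, while 66.2% of the 32851 windows in the table held at least 1. GATA letters (AGATAA or AGATAG or TGATAA or TGATAG, either strand, which can share bases with an E-box) were in 26.5% of all windows and the CArG box by name in 1.47%, and neither was in any of the 8 matched alpha subunit windows. A match is a run of letters, not a bound site, and its absence says only that these letters are not in the window.

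MCs carried mainly *Itga2b*, and the order behind it was *Itga9*, *Itga4*, *Itga2*, *Itga5*, *Itgav* and *Itga6*, with *Itga1*, *Itga7* and *Itga8* close to 0. *Itga2b*, the alpha subunit of the platelet fibrinogen receptor, made up 49.5% of the summed mean level of the 10 genes over the 6 mice. Its level was 3.98, 3.13 and 4.48 per 10000 in WT mice and 4.44, 4.31 and 3.20 in Tln1∆MC mice, so every mouse lay above the highest value of any other alpha gene. *Itga9* stood at 1.78, 1.46 and 1.80 in WT and 1.97, 1.77 and 1.57 in Tln1∆MC mice, and its lowest mouse was above the highest mouse of *Itga4*. Below *Itga9* the ranges of every pair of neighbours in the order overlapped over the 6 mice. The 4 platelet markers summed to at most 0.0286 per 10000 in any mouse, with *Ppbp* and *Gp9* at 0 in WT MCs, and 2195 MCs thinned to 1000 unique molecular identifiers (UMIs) each held an *Itga2b* UMI in 31.1% of cells (95% interval 29.1 to 33.1%). In Myh11-GFP cells thinned the same way 1 of 307 cells did, 0.326% (0.00825 to 1.80%).

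**Figure D1:**
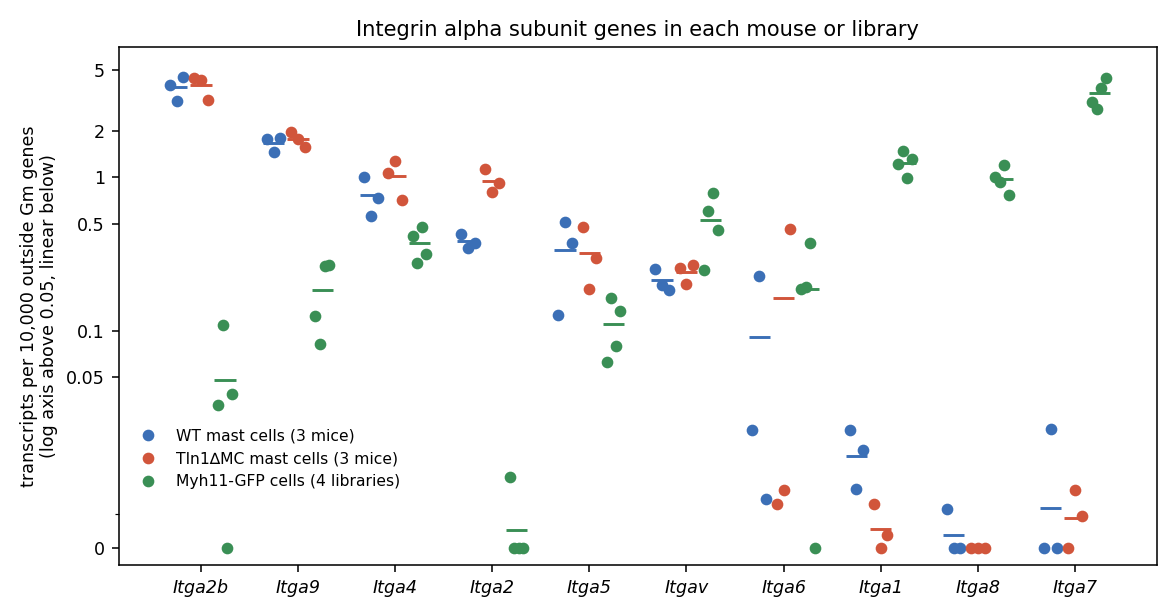
Level of each integrin alpha gene in every mouse or library, in transcripts per 10000 outside Gm genes, on an axis that is logarithmic above 0.05 and linear below it; each point is 1 mouse or 1 Myh11-GFP library and bars are group means. *Itga2b* and *Itga9* lead in MCs and *Itga7*, *Itga1* and *Itga8* in Myh11-GFP cells, and *Itga2* separates the Tln1∆MC from the WT mice.

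To ask whether loss of talin-1 went with a change in these genes, transcripts were summed per mouse and the 3 Tln1∆MC mice compared with the 3 WT mice. *Itga2*, a subunit of a collagen receptor, was about 2.48 times as high in Tln1∆MC as in WT MCs by mean level, and the other tested members were not set apart by genotype. *Itga2* stood at 0.428, 0.349 and 0.372 per 10000 in WT mice, from 37, 40 and 26 transcripts, and at 1.13, 0.798 and 0.922 in Tln1∆MC mice, from 88, 94 and 483 transcripts. All 3 Tln1∆MC mice were above all 3 WT mice, and the exact counting intervals also stayed apart, with the highest WT bound at 0.589 and the lowest Tln1∆MC bound at 0.645. The log2 fold change was 1.33 (SE 0.20) with an unadjusted p of 6.44e-05 in limma, the smallest p of the 8601 genes tested, but its Benjamini-Hochberg adjusted p was 0.431 and it was not called. Indeed limma called 0 of the 8601 genes (0%) higher and 0 (0%) lower, with 527 genes (6.13%) at an unadjusted p under 0.05. The exact two-sided permutation test over mice gave p = 0.1, the smallest that 3 against 3 mice allow. Of 6 members tested, *Itga2* was the 1 whose Tln1∆MC mice all lay above the WT mice, an arrangement found in 5.34% of all genes tested, and no tested member lay the other way, found in 6.31%.

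The separation of *Itga2* ran through the single libraries. Its level was 0.0466 to 0.694 in the 12 WT libraries (median 0.349) and 0.672 to 1.58 in the 18 Tln1∆MC libraries (median 0.907). All but 1 of the 18 Tln1∆MC libraries were above the highest WT library, and 11 of the 12 WT libraries were below the lowest Tln1∆MC library. Libraries of 1 mouse share their animal, so they show spread and are not replicates. The mice formed 2 sets by the profile of transcripts at unused barcodes: the first WT and first Tln1∆MC mouse resembled each other (Pearson r = 0.964 over 159 genes), the other 4 mice resembled each other (r from 0.861 to 0.983), and r between the sets was 0.480 to 0.526. *Itga2* was 2.64 times as high in Tln1∆MC MCs within the first set (1 mouse each) and 2.39 times within the second, where the 2 mice of each genotype did not overlap.

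**Figure D2:**
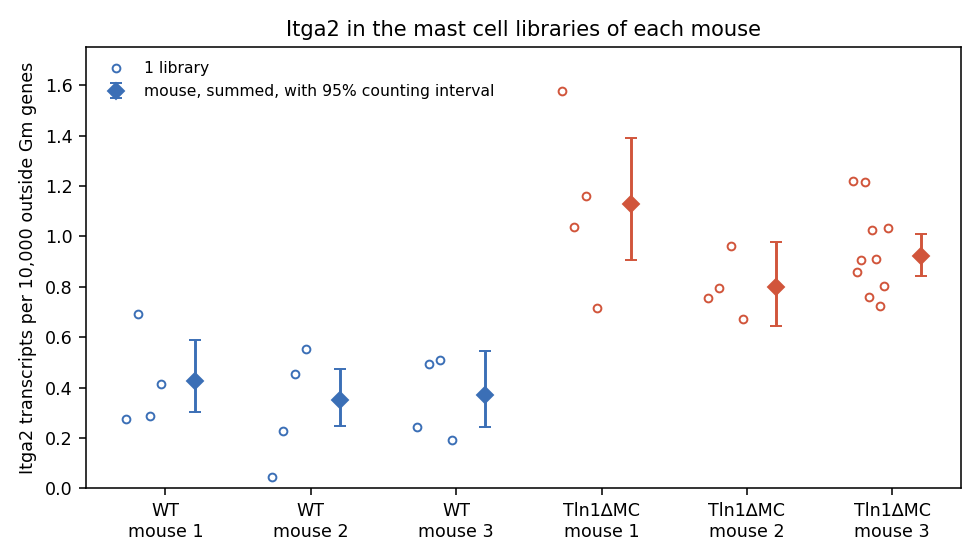
*Itga2* level in transcripts per 10000 outside Gm genes, by mouse; open circles are single libraries and diamonds the sum over a mouse with its exact 95% counting interval. Mouse values lie between 0.349 and 0.428 in WT and between 0.798 and 1.13 in Tln1∆MC mice.

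The share of cells with an *Itga2* UMI moved the same way. After thinning each cell to 1000 UMIs outside Gm genes, which left out 193 WT and 89 Tln1∆MC cells that were shallower, 6.32%, 4.20% and 2.55% of WT cells and 8.75%, 7.79% and 8.99% of Tln1∆MC cells held one. The groups did not overlap (4.36% ± 1.89 against 8.51% ± 0.637, SD, n = 3 mice each), and the exact permutation test, two-sided, could again go no lower than its p of 0.1. Unthinned, the shares were 7.35 to 10.9% in WT and 19.5 to 33.0% in Tln1∆MC mice, but the median depth per cell ranged from 1889 to 3002 in WT and from 2164 to 4776 in Tln1∆MC mice. In Myh11-GFP cells, another cell type in other libraries, 1 of 307 thinned cells held an *Itga2* UMI. Unused barcodes of the MC libraries, pooled over both genotypes, held 14 *Itga2* transcripts, 0.461 per 10000 transcripts there. Those 14 were 1.79% of the gene's transcripts in unused barcodes and kept cells together. Their part in the shares was not tested. Most MCs with the gene had 1 transcript of it: 26, 25 and 14 WT cells and 32, 54 and 208 Tln1∆MC cells had 1, while 1, 1 and 0 WT and 4, 9 and 40 Tln1∆MC cells had 3 or more. The counts per cell were at most 3 in WT and at most 15 in Tln1∆MC mice.

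Fibroblast marker transcripts were higher in WT MCs, as given above, and their part in the *Itga2* difference was not tested beyond the values that follow. Without cells in which macrophage, keratinocyte or fibroblast markers made up 1% or more of transcripts, the log2 fold change of *Itga2* was 1.34 (limma adjusted p = 0.377). Without both libraries richest in macrophage and keratinocyte markers it was 1.47 (limma adjusted p = 0.129). With these libraries left out, *Itga2* stood at 0.288 in the second WT mouse and 0.964 in the third Tln1∆MC mouse.

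For each of the other 5 tested members the ranges of the WT and Tln1∆MC mice overlapped. *Itga4*, which pairs with *Itgb1* or *Itgb7*, stood at 1.01, 0.558 and 0.729 per 10000 in WT and 1.06, 1.27 and 0.712 in Tln1∆MC mice. The first and second Tln1∆MC mouse were above every WT mouse and the third was not (log2 fold change 0.46, SE 0.27, limma adjusted p = 0.855). *Itga2b* and *Itga9*, whose values are given above, had log2 fold changes of 0.10 (SE 0.21) and 0.13 (SE 0.18), each smaller than its SE. *Itgav*, the alpha subunit of the vitronectin receptors, stood at 0.254, 0.200 and 0.186 in WT and 0.256, 0.204 and 0.269 in Tln1∆MC mice (log2 fold change 0.23, SE 0.26). Adjusted p in limma was 0.917 or above for these 3 genes.

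*Itga5*, the subunit of the classical fibronectin receptor, varied most among the tested members. Its level was 0.127, 0.514 and 0.372 per 10000 in WT and 0.474, 0.187 and 0.300 in Tln1∆MC mice, with a log2 fold change of 0.08 (SE 0.51, limma adjusted p = 0.988). The order of the genotypes differed between the sets of mice: the Tln1∆MC mouse was 3.73 times as high as the WT mouse in the first set, and the Tln1∆MC mice (0.187 and 0.300) were both below the WT mice (0.372 and 0.514) in the second. Without the first WT mouse the log2 fold change was -0.53, and without the first Tln1∆MC mouse it was -0.20. All 6 tested members had a log2 fold change above 0, with a median of 0.18 beside 0.02 over all genes. For *Itga5* the mean level went the other way, at 0.338 in WT and 0.320 in Tln1∆MC mice. The 10 genes summed to 7.65, 6.49 and 7.98 per 10000 in WT and 9.36, 8.58 and 7.45 in Tln1∆MC mice, ranges that overlap.

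In MCs, *Itga1*, *Itga6*, *Itga7* and *Itga8* stayed below the 10 transcripts in at least 3 mice that the test required. *Itga1* had 3, 2 and 2 transcripts in WT and 1, 0 and 2 in Tln1∆MC mice. *Itga7* had 0, 4 and 0 in WT and 0, 2 and 5 in Tln1∆MC mice, and *Itga8* had 1 transcript in all 2477 MCs, in the first WT mouse. None of the 2195 thinned MCs held an *Itga8* UMI. A limit of 3 cells allows up to 0.137% of MCs to hold one at 1000 UMIs per cell (exact upper bound 0.168%), which bounds cells with a UMI and not cells that express the gene.

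*Itga6*, a laminin receptor subunit that basal keratinocytes pair with *Itgb4* in hemidesmosomes, was not spread over MCs but sat in a few cells. It had 3, 26 and 1 transcripts in WT mice and 1, 2 and 242 in Tln1∆MC mice, and 1 cell of the third Tln1∆MC mouse held 220 of its 242 while 1 cell of the second WT mouse held 19 of its 26. Only 25 of 2477 MCs had any *Itga6* transcript. The 17 MCs in which 6 keratinocyte markers (*Krt1*, *Krt5*, *Krt10*, *Krt14*, *Krt15* and *Sfn*) made up at least 1% of transcripts held 244 of the 275 *Itga6* transcripts, 88.7%. The cells with 220 and 19 transcripts were among these 17 and held nearly all of the 244. In cells below 1%, the third Tln1∆MC mouse had 19 *Itga6* transcripts and the second WT mouse 7. Those keratinocyte markers summed to 134 per 10000 in the Tln1∆MC library with an *Itga6* level of 2.49 and to 72.8 in the WT library with 0.456, against at most 20.1 in the other 28 MC libraries, where *Itga6* reached at most 0.326. Without both libraries, *Itga6* fell to 0.0959 in the second WT and 0.0347 in the third Tln1∆MC mouse.

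**Figure D3:**
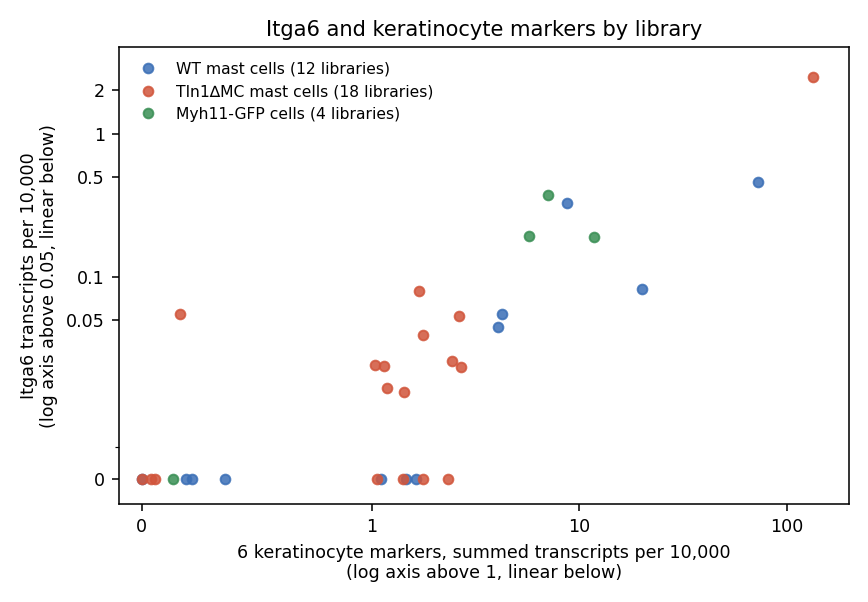
*Itga6* level against the summed level of 6 keratinocyte markers in each of the 34 libraries, both in transcripts per 10000 outside Gm genes, on axes that are linear near 0 and logarithmic above 0.05 and 1. The library with the highest *Itga6* level (2.49) also has the highest keratinocyte marker level (134).

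The beta subunits that pair with these alpha subunits were described from a list of 8. *Itgb1*, whose partners include *Itga1*, *Itga2*, *Itga4*, *Itga5*, *Itga7*, *Itga8* and *Itga9*, stood at 3.01 to 3.26 per 10000 in WT and 2.52 to 2.81 in Tln1∆MC mice. All 3 Tln1∆MC mice were thus below all 3 WT mice, as for 6.31% of the 8601 genes tested. The log2 fold change of *Itgb1* was -0.18 (SE 0.17, limma adjusted p = 0.905). *Itgb3*, the beta subunit of the *Itga2b* heterodimer, had 5 transcripts in all MCs beside 3548 of *Itga2b*. *Itgb7*, an alternative partner of *Itga4*, stood at 0.832 to 1.03 in WT and 0.718 to 0.866 in Tln1∆MC mice and had no transcript in the 4 Myh11-GFP libraries. *Itgb4* was at 0.462 to 0.602 in WT and 0.359 to 0.544 in Tln1∆MC mice and, unlike *Itga6*, was found in every MC library, at 0.179 to 0.715 outside both keratinocyte-rich ones. *Itgb2*, the beta subunit of the leukocyte integrins, stood at 0.162 to 0.314 in WT and 0.0255 to 0.0769 in Tln1∆MC mice (log2 fold change -2.06, SE 0.49, limma adjusted p = 0.504), while macrophage markers summed to 2.08 to 39.3 in WT and 1.15 to 6.94 in Tln1∆MC mice; their part in it was not tested. *Itgb5*, *Itgb6* and *Itgb8* had 38, 52 and 33 transcripts in all MCs.

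None of the 4 lists of related genes had a member past the limma threshold. Of 8 beta subunits, 4 were tested and all 4 had a log2 fold change below 0 (median -0.19). Of 8 other alpha subunits, only *Itgam* was tested, with *Itgam*, *Itga3* and *Itgae* the most abundant in WT MCs at mean levels of 0.147, 0.0736 and 0.0337. Of 27 genes of integrin activation and adhesion, 23 were tested, 7 with a fold change above and 16 below 0 (median -0.11), led in WT MCs by *Tln1* itself and by the actin linkers *Tns1* (4.45) and *Zyx* (4.39). Of 32 matrix and cell surface ligands, 11 were tested, 2 with a fold change above and 9 below 0 (median -1.62). The most abundant of them in WT MCs were *Col1a1*, *Col1a2* and *Col3a1*, 3 genes that are also among the fibroblast markers, with log2 fold changes of -4.15, -4.08 and -3.74 and a limma adjusted p of 0.431 each. The median over all 8601 genes was 0.02.

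Set against Myh11-GFP cells, 4 of the 10 alpha genes were higher in MCs, 3 were higher in Myh11-GFP cells and 3 met neither rule. The rule asked for all 4 Myh11-GFP libraries to lie above all 6 mice and at least 2-fold by mean level, as 13.1% of 14679 genes did, or below them in the same way, as 14.1% of genes did. *Itga7*, the laminin receptor subunit of muscle, stood at 3.07, 2.78, 3.80 and 4.42 per 10000 in Myh11-GFP libraries and at 0 to 0.0349 in MCs, a pooled ratio of 306 (95% counting interval 169 to 617). *Itga1* stood at 1.21, 1.49, 0.982 and 1.31 and at 0 to 0.0347 in MCs, a ratio of 122 (65.1 to 260). *Itga8*, whose product binds nephronectin, stood at 1.00, 0.936, 1.19 and 0.767 against 1 transcript in all MCs, a ratio of 991 (175 to 39392). By itself *Itga7* made up 49.0% of the summed mean level of the 10 genes in Myh11-GFP cells, *Itga1* 17.4% and *Itga8* 13.6%.

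In the other direction, *Itga2* had 1, 0, 0 and 0 transcripts in the Myh11-GFP libraries, a pooled MC to Myh11-GFP ratio of 112 (20.0 to 4414). The neighbouring collagen receptor genes lay on opposite sides, *Itga2* in MCs and *Itga1* in Myh11-GFP cells. *Itga2b* had 2, 4, 0 and 1 transcripts there, a ratio of 73.7 (35.7 to 183). *Itga9* stood at 0.125, 0.0826, 0.265 and 0.271, a ratio of 9.50 (6.41 to 14.7). *Itga4* stood at 0.418, 0.275, 0.478 and 0.316, close to the lowest MC mouse at 0.558 (ratio 2.14, 1.62 to 2.86), and was no longer called without cells rich in macrophage, keratinocyte or fibroblast markers, with thinned cells, with Gm genes in the totals or at 4-fold.

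*Itga5*, *Itga6* and *Itgav* met neither rule. *Itgav* stood at 0.251, 0.606, 0.796 and 0.451 in Myh11-GFP libraries and at 0.186 to 0.269 in MCs, so 3 of the 4 libraries were above every mouse, and without library 13 it was called higher. *Itga5* stood at 0.0627, 0.165, 0.0796 and 0.135, within the MC range only because of the first WT mouse at 0.127, and was called higher in MCs without that mouse. *Itga6* stood at 0.188, 0.193, 0.372 and 0, and 5 Myh11-GFP cells with 1% or more keratinocyte markers held 16 of its 30 transcripts. Of the beta subunits, *Itgb1* reached 8.22 to 9.30 and *Itgb5*, a partner of *Itgav*, 0.578 to 0.850 in Myh11-GFP libraries. Among the other alpha subunits the most abundant there were *Itga10*, *Itga3* and *Itga11*, at mean levels of 0.306, 0.148 and 0.0920. The summed level of the 10 genes, 6.39 to 7.97 in Myh11-GFP libraries, overlapped that of the WT mice. The most abundant ligands there were *Col1a2*, *Col3a1* and *Col1a1* (mean levels 64.7, 60.5 and 51.5), and of the adhesion genes *Flna*, *Actn4* and *Tns1* (8.25, 7.32 and 6.05).

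Within Myh11-GFP cells, *Itga8* and *Itga4* were higher with the contractile transcripts, while the direction of *Itga7* depended on how the cells were split. Each library was split at its own median of the summed level of *Acta2*, *Myh11*, *Tagln* and *Cnn1*, genes of the contractile apparatus, into contractile-high and contractile-low cells, 36 to 47 of each. *Itga8* stood at 1.68, 1.84, 2.02 and 1.37 per 10000 in contractile-high and at 0.364, 0.243, 0.414 and 0.315 in contractile-low cells, a pooled ratio of 5.26 (3.42 to 8.38). The ranges of high and low cells did not overlap over the 4 libraries, which are not known to come from different mice. *Itga4* stood at 0.648, 0.381, 0.764 and 0.422 in contractile-high and at 0.202, 0.194, 0.207 and 0.237 in contractile-low cells, again without overlap, a ratio of 2.83 (1.54 to 5.42). *Itga5* and *Itga9* were also higher in contractile-high cells of all 4 libraries, from 15 and 25 transcripts in all, and no member was lower in all 4. All 4 libraries agreed on a higher level for 13.4% of the genes compared and on a lower level for 9.95%.

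*Itga7* had 241 transcripts in contractile-high and 248 in contractile-low cells (ratio 1.13, 0.939 to 1.35) and *Itga1* 75 and 103 (ratio 0.844, 0.618 to 1.15), each with libraries on both sides. Between the top and the bottom 25% of cells by the same score, however, *Itga7* was higher in all 4 libraries, at 4.03, 2.64, 4.31 and 4.32 against 1.56, 2.55, 2.05 and 2.77 per 10000 (131 against 94 transcripts, ratio 1.78, 1.36 to 2.35), where 14.5% of genes were higher and 10.7% lower in all 4. Without library 16 it was higher at the median split in the other 3. *Itga4*, *Itga5*, *Itga8* and *Itga9* were also higher in the top 25% of cells of all 4 libraries (*Itga8* ratio 8.31, 4.50 to 16.8, and *Itga4* ratio 6.61, 2.72 to 19.4), and *Itga1* was not (ratio 0.861, 0.544 to 1.35). *Itga6* had 1 transcript in contractile-high and 29 in contractile-low cells, where the keratinocyte markers were 22.1, 9.67, 13.3 and 0.0789 per 10000 and *Itga6* 0.364, 0.292, 0.724 and 0. The contractile-low cells also held more fibroblast marker transcripts, 235 to 540 against 43.5 to 73.7 per 10000. After cells with 1% or more macrophage, keratinocyte or fibroblast markers were left out, *Itga8* was higher in the contractile-high cells of all 4 libraries (ratio 3.70, 2.35 to 6.04), *Itga4* too (ratio 1.70, 0.897 to 3.34), *Itga7* in 1 of 4 (ratio 0.886, 0.716 to 1.10), and *Itga1* was lower in all 4 (ratio 0.564, 0.366 to 0.860), where 11% of genes were higher and 9.14% lower in all 4. *Itgb1*, the partner of all of these, was higher in contractile-high cells of all 4 libraries with every cell kept (ratio 1.55, 1.39 to 1.74). Between 6 and 12 cells of a library lay within 20% of the cut, so both sides are ranges of a score and not cell types.

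**Figure D4:**
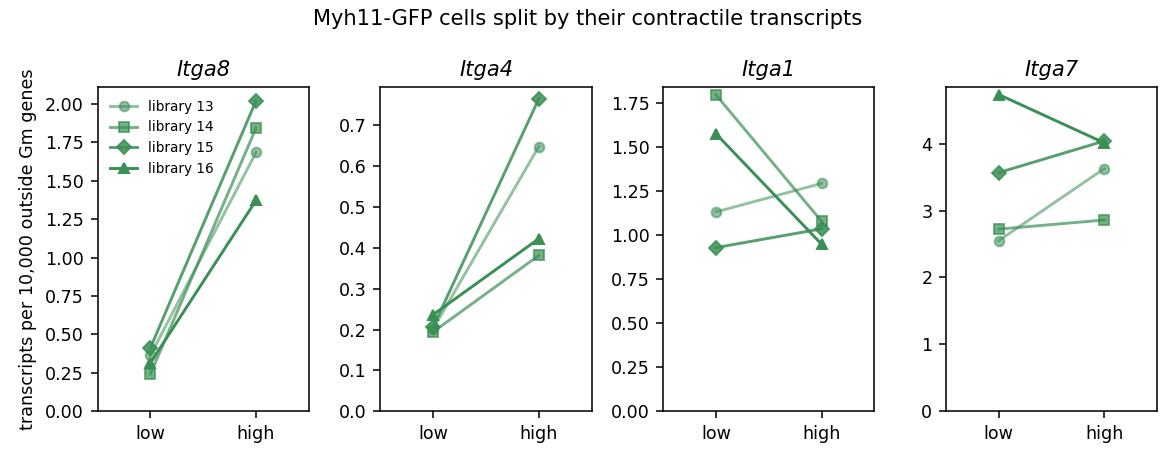
Level of 4 alpha genes in transcripts per 10000 outside Gm genes in the cells of each Myh11-GFP library below (low) and above (high) its median of summed contractile transcripts; each line is 1 of the 4 libraries. *Itga8* lies at 0.243 to 0.414 in low and 1.37 to 2.02 in high cells, while lines of *Itga1* and *Itga7* go both ways.

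Within MCs, cells were split at the median of each mouse by the summed level of the MC protease genes *Cma1*, *Mcpt4*, *Cpa3* and *Tpsb2*. *Itga2* was 0.390, 0.238 and 0.370 per 10000 in protease-high cells of the WT mice and 0.498, 0.449 and 0.374 in protease-low cells. In Tln1∆MC mice it was 0.739, 0.709 and 0.916 in protease-high and 1.61, 0.946 and 0.929 in protease-low cells. It was thus lower in the protease-high cells of all 6 mice, by little in the third mouse of each genotype (pooled ratio 0.838, 0.725 to 0.968). Of the genes compared, 5.91% were lower in all 6. Pooled ratios weight mice by their transcripts, and the third Tln1∆MC mouse held 483 of the 768 *Itga2* transcripts. Mean *Itga2* levels over the 6 mice were 0.560 in protease-high and 0.802 in protease-low cells. On either side of the split, each Tln1∆MC mouse was above every WT mouse. *Itga9* was higher in the protease-high cells of 5 of 6 mice (pooled ratio 1.40, 1.27 to 1.55) and *Itga2b* of 4 of 6 (ratio 1.14, 1.07 to 1.22). *Itgb1* was higher in the protease-high cells of all 6 (2.87 to 3.75 against 1.87 to 2.76), as were 4.71% of genes. Without cells rich in macrophage, keratinocyte or fibroblast markers, *Itga2* was lower in the protease-high cells of 5 of 6 mice (ratio 0.765, 0.661 to 0.886). *Itga9* was then higher in 4 of 6 (ratio 1.21, 1.09 to 1.34). The excess of *Itga2b* was gone without those cells, with 3 of 6 mice higher (ratio 0.979, 0.915 to 1.05). In that split 6.09% of genes were lower and 4.88% higher in all 6, a stricter rule that none of these 3 genes met. Shares of all genes that moved in 5 or 4 of 6 mice were not computed. Protease-high cells were deeper in every mouse, with medians of 2001 to 5398 transcripts per cell against 1178 to 4145, and the part of depth in these ratios was not tested.

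**Figure D5:**
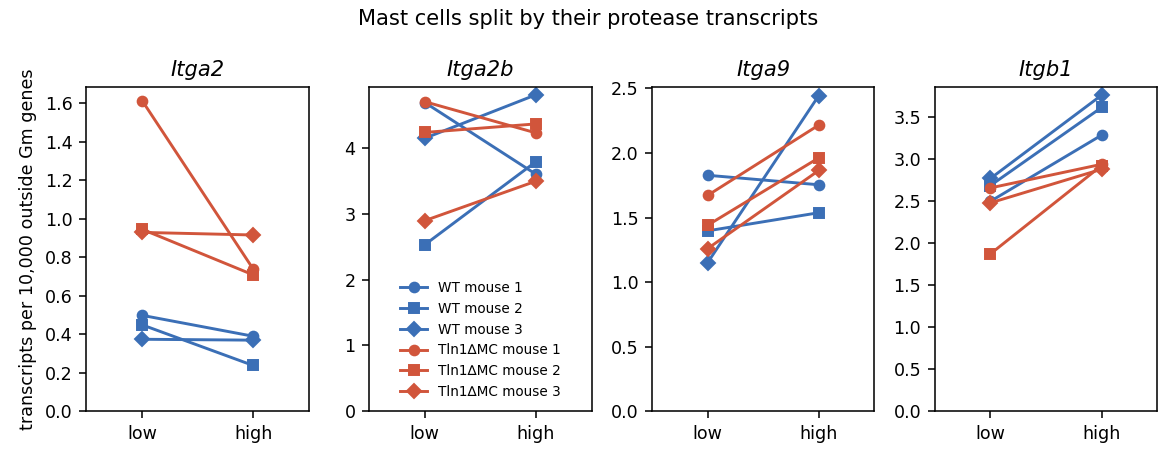
Level of 3 alpha genes and of *Itgb1* in transcripts per 10000 outside Gm genes in the MCs of each mouse below (low) and above (high) its median of summed protease transcripts; each line is 1 mouse. *Itga2* is lower in high than in low cells of all 6 mice and Tln1∆MC lines (0.709 to 1.61) stay above WT lines (0.238 to 0.498).

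By the immediate early genes *Fos*, *Junb* and *Dusp1*, *Itga2* was lower in the high cells of 5 of 6 mice (ratio 0.771, 0.666 to 0.891). Over all genes, 2.93% were lower and 3.23% higher in all 6 mice, a stricter rule that *Itga2* did not meet here. By *Arl4c*, *Sla* and *Lgals1*, *Itga2* was higher in the high cells of 5 of 6 (ratio 1.47, 1.27 to 1.71), as was *Itga9* (ratio 1.26, 1.14 to 1.39). Here 5.17% of genes were higher and 3.75% lower in all 6, which neither gene was. The share of all genes that moved in 5 of 6 mice was not computed, so these counts have no background. No member but *Itga2* and *Itga6* moved one way in all 6 mice in any of the 3 splits, and *Itga6* did so with the protease genes (10 transcripts in protease-high and 265 in protease-low cells, where the keratinocyte-rich cells lie).

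Over the 30 MC libraries, the genes most like each alpha gene in level were found among 6152 genes with at least 200 transcripts, by Pearson correlation of log2 of the level per 10000 plus 0.1. These correlations describe libraries that share mice, genotype and depth. *Itga2b* was most like *Hdc*, the histidine decarboxylase that makes histamine (Pearson r = 0.88), followed by *Il17ra* (0.81) and *Basp1* (0.80). *Itga2* was most like *Diaph1* (0.79), *Malat1* (0.78) and *Zc3h13* (0.78), and *Itga9* most like *Prkcb* (0.80), *Ndrg1* (0.80) and *Stard13* (0.77). *Itga4* was most like *A530083M17Rik* (0.71), *Penk* (0.71) and *Phxr4* (0.70), *Itga5* like *Cadm3* (0.73), *Arhgef1* (0.70) and *Tns1* (0.69), and *Itgav* like *Eed* (0.65), *Rbmxl1* (0.59) and *Idh3a* (0.58). *Itga6* was most like *Serpinb5* (0.94), *Cldn1* (0.93) and *Dsc3* (0.92), genes known from epithelia. It met the limit of 200 transcripts only through 1 cell of the third Tln1∆MC mouse, which held 220 of its 275. The library of that cell had an *Itga6* level of 2.49 per 10000. The median was 0.0137 in MC libraries other than those richest in macrophage and keratinocyte markers, so these correlations lean on few libraries.

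The thinned share of cells with at least 1 of the 10 alpha genes was 51.0%, 43.5% and 51.0% in WT, 60.4%, 58.3% and 48.8% in Tln1∆MC mice and 51.6%, 47.4%, 54.8% and 64.8% in Myh11-GFP libraries. At this depth 9.68 to 21.3% of cells held 2 or more of the genes. The ranges of WT, Tln1∆MC and Myh11-GFP cells overlapped in the share with at least 1.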

How the data were processed

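Single cells were sorted into wells and their 3′ transcript ends sequenced with mCEL-seq2. The authors aligned reads with BWA 0.6.2-r126 after bcl2fastq 2.17.1.14 (submitters' processing notes, build mm10) and counted unique molecular identifiers (UMIs) in the sense direction. The deposited values in the 34 tables are other than raw counts: they are UMI counts converted to transcripts for 4096 possible UMIs, and each value returned to a whole UMI (largest distance 4e-12). Cells with over 1000 transcripts were kept. The 192 barcodes name wells, so each recurs in several libraries; 17 kept cells lie in the set of 96 that its library did not use. Genes named Gm plus a number were left out of tables and totals.

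Transcripts were summed per mouse, scaled by TMM factors, and tested with limma 3.58.1 (trend, log2 of transcripts per 1000000 plus 1, on genes that reached 10 transcripts in 3 or more mice, Benjamini-Hochberg over all genes, threshold 0.05). The code was tested on simulated data. Exact permutation tests compared single genes over mice. For shares of cells, each was thinned to 1000 UMIs, which left out 282 of 2477 MCs and 23 Myh11-GFP cells. Analyses ran in Python 3.11.15 (numpy 2.4.6, scipy 1.17.1, pandas 2.3.3) and R 4.3.3. No doublet caller was run; the study sorted with doublets excluded. Alternatives were other cell and gene filters, totals, pseudocounts, blocks and leaving out each mouse or library. A gene missing from a table was taken as 0. All 10 genes were named, and from each list the genes past the threshold, the 3 highest by mean level in WT MCs and the 3 highest in Myh11-GFP cells, and any beta subunit. The members and lists were chosen with earlier results of these data known. No column of another series was found (0).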

Additional observations from a re-analysis of the deposited data

Results flagged for a closer look

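In the Myh11-GFP libraries a single library stood apart from the other 3 in 4 measures, each with a gap equal to the whole range (a ratio of 1, above the critical value for 4 samples). These were the level of *Itga2* and the thinned shares of cells with *Itga2*, *Itga2b* and *Itga6*, and each rests on 1 cell or transcript in 1 library with the other 3 at 0. With 1 library above 0 and the other 3 at 0, the ratio is 1 whatever the value. The rate of about 1 in 20 groups expected under this rule therefore does not hold for these measures.

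Barcodes that a library did not use also held alpha subunit transcripts above the 3 that a count of 0 allows. In MC libraries they held 92 transcripts of *Itga2b*, 32 of *Itga9*, 21 of *Itga4*, 14 of *Itga2* and 7 of *Itgav*, which is 2.53%, 1.92%, 2.53%, 1.79% and 2.80% of each gene's transcripts in unused barcodes and kept cells together. In Myh11-GFP libraries they held 4 of *Itgav*. What they stem from was not tested.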

How the results depend on the processing

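In 23 alternatives to the test between genotypes no member passed the threshold, and *Itga2* kept a log2 fold change of 1.22 to 1.47 with a limma adjusted p of 0.101 to 0.999. With the replicate block it was 1.33 (limma adjusted p = 0.579), which changed no call, with 0 genes called. Pearson r of the deviations of same-numbered mice was 0.16, -0.21 and -0.27 over 8601 genes. The labels give no pairing by number. The first WT and first Tln1∆MC mouse did resemble each other at unused barcodes (Pearson r = 0.964), and what same-numbered mice share was not tested further. With the set of shared background as a block, 2 genes were called lower over all genes against 0, and leaving out 1 mouse gave 0 to 10, of which 10 without the first Tln1∆MC mouse and 1 without the first WT mouse, and 0 to 1 in the lists (*Col1a2*). These genes include no member, and the cause was not tested. *Itga5* reversed to -0.16 with thinned cells, and leaving out 1 mouse moved it from -0.53 to 0.54. Without thinning, the *Itga2* share differed by 15.0 percentage points in place of 4.15. Members higher in contractile-high cells went from 4 to 5 with the top against the bottom 25% of cells and without library 16 (*Itga7* added) and to 3 without marker-rich cells. Members lower there went from 0 to 1 without marker-rich cells (*Itga1*), and from 0 to 1 over libraries left out (*Itga6*, without library 16). The limit of 2% *Kcnq1ot1* removed 0 cells. Count models were not run, and leaving out marker-rich cells in the split, both marker-rich libraries or unused barcodes was chosen after seeing the data. Depth limits *Itga1*, *Itga7* and *Itga8* in MCs, and *Itga2* and *Itga2b* in Myh11-GFP cells, to statements about a few transcripts.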
